A study of Mus musculus with 27 samples.

Results

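P1 cells of the periosteum were compared with P1 cells of the bone marrow, gene by gene. P1 is the fraction of Prx1-derived cells that lacks CD105 (endoglin) and carries CD200 on its surface, and all 6 of its libraries from these tissues were used, 3 of periosteum and 3 of bone marrow, out of 27 libraries in the series. The study sorted Prx1-derived cells from periosteum, bone marrow and skeletal muscle of the mouse hindlimb into 3 fractions and sequenced their RNA. The other fractions are P2, which lacks both markers, and P3, which carries CD105 with variable CD200. Every group came from Prx1-CreER/Ai14/Rag1 mice, given 2 tamoxifen injections 48 h apart and harvested 3 days after the last. The study used mice of both sexes, 8 to 12 weeks old, without giving the sexes of each group. In these mice the Prx1 promoter drives a tamoxifen-activated Cre, so a cell is labelled red if it used that promoter around the injections, and the animals of every group carry the Rag1 mutation, which in homozygous form removes mature lymphocytes. The sorted cells were live, Prx1+ and CD45-. There were 3 mice per group, and femur and tibia of the same animals gave both tissues. Which animal gave which library was not stated, so p-values treat libraries as independent samples.

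The periosteum is the sheath around a bone. Its inner layer holds progenitors of bone and cartilage that build the fracture callus, and its outer layer is fibrous and runs into tendon and ligament attachments. Prx1 (gene symbol Prrx1) marks limb mesenchyme, from which the osteoblasts, cartilage cells, tendon cells and connective tissue of the limb arise. In the marrow, the stromal cells of this lineage support blood formation through Cxcl12 and Kitl, and osteoblasts line the inner bone surface. CD200 is a surface glycoprotein used to enrich skeletal progenitors, and CD105 is a co-receptor for TGF-beta ligands.

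Values are normalized read counts. Their totals were 12840142 to 13822736 in the periosteum libraries and 16749871 to 22029826 in the bone marrow libraries, and the periosteum libraries had fewer genes with a value above 0 (14395 ± 1058 against 15679 ± 313, mean ± SD, n = 3, two-sided exact permutation p = 0.1, the smallest p that 3 against 3 allows). Periosteum replicates resembled each other less than marrow replicates did: across the 13045 genes tested, Pearson's r on the log2 scale was 0.631 to 0.713 within periosteum, 0.888 to 0.903 within marrow and 0.549 to 0.682 between the tissues. Replicate 1 of the periosteum stood apart. Of 1883 genes with a mean value of 100 to 200 in marrow P1, 17.95% were listed at 0 in that library, against 7.70% and 6.69% in the other periosteum libraries and 0.212% to 0.531% in the marrow libraries. These genes were picked by their marrow values, so few zeros in marrow were built in. Genes that are lower in periosteum also count here, so the shares compare the periosteum libraries with each other only. The part of library complexity in the results below was not tested, and counts without each library are given beside them.

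The genes of the sorting markers were checked in each library. Cd200 had values of 3972, 2614 and 2607 in periosteum and 6346, 7515 and 6315 in marrow, present in all 6 libraries and lower in periosteum in each (log2 fold change -1.16 ± 0.24, mean ± SE, adjusted p = 0.0263), but under the fold threshold for a call. Eng, which encodes CD105, was low and overlapped (38.7, 159 and 10.4 against 111, 129 and 5.18). Prrx1 itself did not differ detectably, with 4578, 1516 and 2544 in periosteum and 2413, 1675 and 1819 in marrow (adjusted p = 0.575). Adjusted p-values here and below are from limma with Benjamini-Hochberg adjustment over all genes tested.

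Between the tissues, 799 of 13045 genes (6.12%) were differentially expressed genes (DEGs), taken as genes with adjusted p under 0.05 whose log2 fold change exceeded 1.5 in size. Of these, 313 (2.4% of the genes tested) were higher and 486 (3.73%) were lower in periosteum. Among DEGs with a mean of at least 100 in the higher tissue, the 8 largest increases were those of Mfap4, Col9a3, Lect1, Itgbl1, Kera, Igfbp6, Cilp and Myoc. Col9a3 and Lect1 are on the cartilage list described further on, Kera and Cilp on that of tendon and Igfbp6 on that of fibroblasts, and Mfap4, Itgbl1 and Myoc are on none. The 8 largest decreases were those of Ltf, Ngp, S100a9, Chil3, Camp, S100a8, Lcn2 and Gm15725, of which all but Chil3 and Gm15725 are on the list of leukocyte markers. Over all genes tested the log2 fold change had a median of -0.43, so a gene near that value lay at the middle of the distribution. Of the 486 lower DEGs, 177 were at 0 in each periosteum library, and 25 of the 313 higher DEGs were at 0 in each marrow library. Such genes passed the filter only through the other tissue, so they had to differ, and no p-value of this comparison is given for them. Genes near 0 in 1 tissue also passed through the other. Examples are Ngp, S100a9 and Ptprc, low in periosteum, and Lect1, Col9a3, Acan, Kera, Hhip, Cxcl1 and Ccl2, low in marrow. For these and others like them the filter favoured a difference, and their p-values below are not counted as support for one. Among the 10483 genes with a value above 0 in all 6 libraries, there were 375 DEGs, of which 218 were higher and 157 lower. The split also depended on the scaling: with all libraries rescaled to the same total it was 511 higher and 358 lower, and with quantile normalization 479 and 294. Leaving out 1 marrow library at a time lowered the number of DEGs to 482, 472 and 506 (replicates 1 to 3), and leaving out 1 periosteum library raised it to 973, 1044 and 1104. In all 6 of these fits, 420 of the DEGs were called (164 higher, 256 lower), and all 799 kept their sign. Without regard to the test, the 3 libraries of one tissue all lay above the 3 of the other for 3848 genes (29.5%). Periosteum was the higher tissue for 1444 of them (11.1% of the genes tested) and the lower for 2404 (18.4%). All 799 DEGs were among the 3848, so for a DEG the lack of overlap is not added support.

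**Figure D1:**
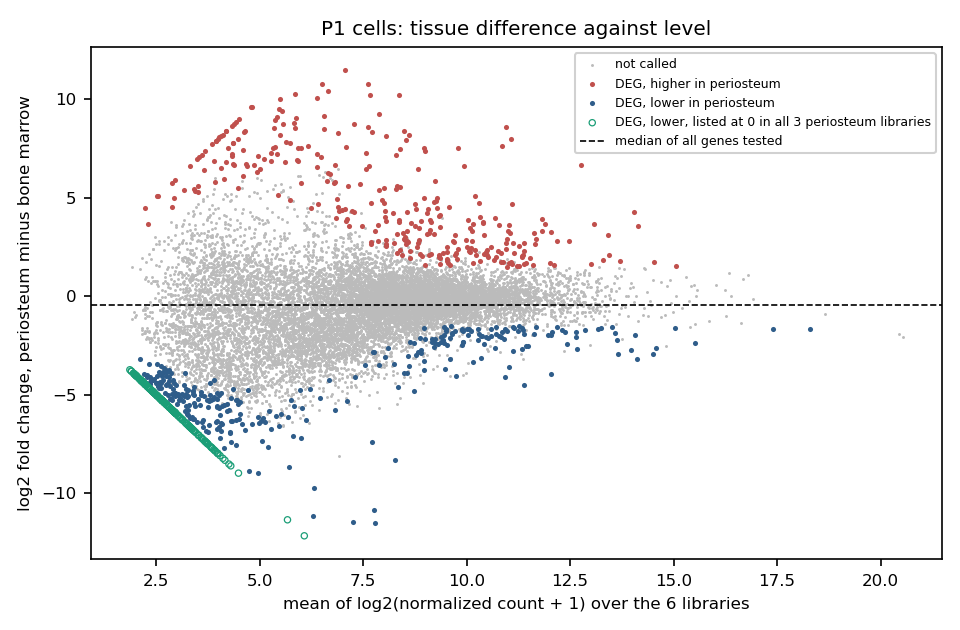
Each point is 1 of the 13045 genes tested in P1 cells, with its average log2(normalized count + 1) in the 6 libraries on the x axis and the log2 fold change, periosteum minus bone marrow, on the y axis. The dashed line is the median of all genes (-0.43), red points are the 313 higher DEGs, blue points and green circles the 486 lower DEGs, and the green circles along the lower left edge are the 177 lower DEGs listed at 0 in all 3 periosteum libraries.

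Those genes of the osteoblast program that passed the test were lower in periosteal P1 cells with 1 exception. Of 10 osteoblast transcription factors tested, 3 were lower (3.73% of all genes tested were), 0 were higher and 7 were not called, with a list median of -0.96. Runx2, the master regulator of osteoblast commitment, had values of 1073, 929.8 and 1319 in periosteum and 3110.1, 3061 and 4454 in marrow. Every marrow library lay above every periosteum library, at a log2 fold change of -1.67 ± 0.26 (adjusted p = 0.009601). Sp7 (osterix), which acts downstream of Runx2 in osteoblast maturation, had 1491, 1043 and 2078 against 4222, 5189.8 and 4059 (-1.59 ± 0.29, adjusted p = 0.0169). Dlx3, a homeobox factor of bone and tooth formation, had 610.3, 576 and 531 against 1867, 3679 and 2707 (-2.21 ± 0.31, adjusted p = 0.00786). As for every DEG, the tissues did not overlap for any of the 3. Atf4, which osteoblasts need for collagen synthesis, was not called and overlapped (2527, 3152 and 3222 against 2730.2, 3327 and 3100.4). The count of 3 was 1 after rescaling to the same total and 0 with all 27 libraries in the fit. Sp7 was lost without any one of the marrow libraries (adjusted p up to 0.0848) and fell under the fold threshold without periosteum replicate 2, as Runx2 did without marrow replicate 3.

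Of the 22 genes of bone matrix and mineralization, 14 had all 3 periosteum values below all 3 marrow values (18.4% of all genes tested did), 3 were lower DEGs and 1 was a higher DEG, with a median log2 fold change of -1.12. The 3 lower genes were Bglap and Bglap2, which encode osteocalcin, the calcium-binding hormone-like protein of mature osteoblasts, and Ifitm5, a membrane protein of mineralizing osteoblasts. Bglap had 132686, 234950.2 and 189423 in periosteum and 742558, 521555 and 498392 in marrow, without overlap (-1.68 ± 0.38, adjusted p = 0.0398). Bglap2 had 73495, 122388 and 100229 against 407202, 280982 and 254932 (-1.67 ± 0.34, adjusted p = 0.0247), and because these paralogs are nearly identical, how reads were divided between them is uncertain. Ifitm5 had 3769, 6997 and 6445 against 17576, 20044 and 13442 (-1.60 ± 0.29, adjusted p = 0.0158). None of the 3 was called after rescaling to the same total, without the variance trend, or without marrow replicate 1, marrow replicate 2 or periosteum replicate 1. Bglap was lost in all 6 fits without 1 library (adjusted p up to 0.221) and Bglap2 in 5 of them. These calls therefore rest on the full set of libraries and its scaling.

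The type I collagen genes took a smaller share of the normalized counts in each periosteum library than in each marrow library. Col1a1 had 493351, 961564 and 853507 in periosteum and 2570531, 4087529.7 and 2095399 in marrow, and Col1a2 had 514697, 986049.6 and 849775 and 2815259, 4585207 and 2357618. Every marrow value lay above every periosteum value for both chains of this main bone protein, but neither was a DEG (log2 fold changes -1.92 and -2.05, adjusted p = 0.106 and 0.0913). Both were lower DEGs without a filter on low values (adjusted p = 0.0197 and 0.0152) and with the replicate block (0.0461 and 0.0375). They were also lower DEGs with all 27 libraries in the fit (0.039 and 0.00874) and with the 9 P1 libraries (0.00794 and 0.00422). With quantile normalization their log2 fold changes were 0.03 and -0.03. That method gives genes of equal rank equal values, so it cannot show a difference for genes this high in every library. Together they made up 11.6% ± 3.75 (SD, n = 3) of the normalized counts in periosteum and 32.1% ± 6.58 in marrow, a difference of -20.5 percentage points (two-sided exact permutation p = 0.1, the smallest possible). Sparc (osteonectin), Ibsp (bone sialoprotein), Spp1 (osteopontin) and Alpl (alkaline phosphatase, which frees phosphate for mineral) were not DEGs, with log2 fold changes of -0.91, -1.34, -1.25 and -0.24. Ibsp shows the spread among the periosteum libraries, with 23002, 101367 and 110191 against 151959, 188589 and 146098 in marrow.

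Slc20a1 went the other way. This gene encodes a sodium-dependent phosphate transporter, and its values were 979, 1354 and 1347 in periosteum and 71.4, 126 and 76.1 in marrow. The marrow libraries lay far below periosteum, with a log2 fold change of 3.77 ± 0.47 (adjusted p = 0.00688), and the call held without each library in turn. Of 9 osteocyte genes tested, 1 was higher and 0 were lower (2.4% and 3.73% of all genes tested were). It was Ackr3, a scavenging receptor for Cxcl12, with 1244, 1138 and 1658 against 185, 362 and 437 (2.10 ± 0.42, adjusted p = 0.0232), lost without marrow replicate 1 or 2 or periosteum replicate 3 (up to 0.07198). Dmp1 and Phex, which regulate phosphate and mineral in osteocytes, were not called (-1.20 and -1.04), and Sost, the secreted Wnt inhibitor of mature osteocytes, was listed at 0 in all 6 libraries.

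The promoter of Bglap is shown because osteocalcin is a classical Runx2 target. Both genes were lower DEGs in periosteum, though Bglap was lost in all 6 fits without 1 library. A link between these decreases was not tested. The 250 bases before its start site (RefSeq, GRCm38.p6, chr3:88384467-88384716, minus strand) hold 1 Runx core, written in capitals, which ends 126 bases before the start site.
Bglap: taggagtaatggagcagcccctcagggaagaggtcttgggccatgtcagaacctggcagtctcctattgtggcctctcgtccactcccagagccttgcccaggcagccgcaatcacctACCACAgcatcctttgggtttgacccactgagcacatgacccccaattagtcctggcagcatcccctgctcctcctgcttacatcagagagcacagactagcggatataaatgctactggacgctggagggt
The letters ACCACA, searched on both strands, occurred in such windows of 7 of the 17 bone matrix genes with a promoter in the RefSeq table (41.2%), of 1 of 6 osteoblast transcription factors and of 15.9% of all 27025 genes. A match describes the letters and does not show binding.

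**Figure D2:**
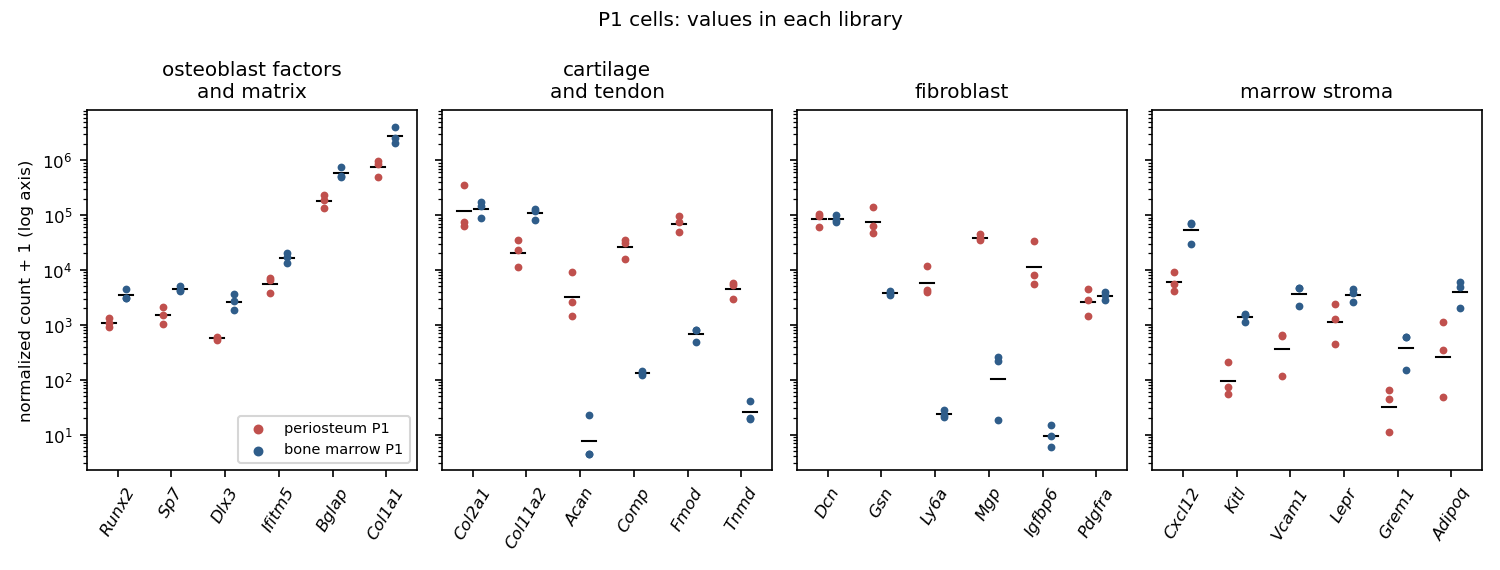
Normalized count + 1 on a log axis for 24 genes in each P1 library (red, 3 periosteum; blue, 3 bone marrow; the bar is the mean of the log values). Runx2, Sp7, Dlx3, Ifitm5, Bglap and Col1a1 and the marrow stroma genes shown are lower in all 3 periosteum libraries, Acan, Comp, Fmod, Tnmd, Gsn, Ly6a, Mgp and Igfbp6 are higher in all 3, and Col2a1, Dcn and Pdgfra overlap.

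Cartilage genes separated into a large group that was higher in periosteum and a small one that was not. Of 26 genes on this list, 22 were tested, and 15 were higher and 2 lower in periosteum (2.4% and 3.73% of all genes tested were), with a median log2 fold change of 7.46. Acan (aggrecan, the large proteoglycan of cartilage) had 1433, 9057 and 2622 in periosteum and 3.402, 21.3 and 3.43 in marrow. All periosteum libraries lay above marrow, replicate 2 by the most (8.74 ± 1.03, adjusted p = 0.00666). Comp, a matrix protein of cartilage and tendon, had 31039, 35207 and 15651 against 142, 129 and 121 (7.61 ± 0.34, adjusted p = 2.97e-04). Col9a3, a chain of the collagen on the surface of cartilage fibrils, had 5221, 22915 and 4799 against 12.2, 0 and 6.89, and Lect1 (chondromodulin), which keeps cartilage free of vessels, had 1429, 16480.0 and 2409 against 0, 0 and 9.42. For both, the marrow values were at or near 0 (log2 fold changes 10.79 ± 1.13 and 10.78 ± 1.40, adjusted p = 0.00461 and 0.00729). Sox9, the transcription factor that directs cartilage formation, had 883, 3608 and 1119 against 132, 152 and 125 (3.48 ± 0.58, adjusted p = 0.01097), and Col10a1, the collagen of hypertrophic cartilage cells, 3657, 19594 and 4022 against 183, 19.5 and 15.4 (7.38 ± 1.04, adjusted p = 0.00786).

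Col2a1, the main fibrillar collagen of cartilage, did not follow this group. Its values were 62224, 359279 and 75226 in periosteum and 143665, 171864 and 89106 in marrow. Periosteum replicate 2 had the highest value and the other periosteum libraries the lowest, so the groups overlapped (log2 fold change -0.13 ± 0.66, adjusted p = 0.924). Col11a2, a chain of the collagen inside type II fibrils, was lower in periosteum, with 11111, 34799 and 23142 against 118905, 127433 and 81322 (-2.37 ± 0.42, adjusted p = 0.0148), and its call was lost without marrow replicate 1 or 2 (0.07196 and 0.0742). Pth1r, the receptor for parathyroid hormone and its related protein, which both cartilage cells and osteoblasts carry, had 253, 435 and 1604 against 7934, 18457 and 14355. It was lower in every periosteum library (-4.51 ± 0.65, adjusted p = 0.00819). The higher count was 12 to 16 without 1 library. Among the 15 cartilage genes with a value above 0 in all 6 libraries, 9 were higher and 2 lower, with a median of 4.35.

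Tendon genes were higher in periosteum in 7 of 10 cases (2.4% of all genes tested were) and lower in 0. Fmod (fibromodulin), a proteoglycan that organizes collagen fibrils, had 94509, 73525 and 49053 in periosteum and 482, 819 and 807 in marrow. No periosteum library came near marrow (6.67 ± 0.32, adjusted p = 2.97e-04). Tnmd (tenomodulin), a marker of mature tendon cells, had 5843, 5220.4 and 2929.9 against 18.6, 19.4 and 40.8 (7.45 ± 0.54, adjusted p = 0.00142). Thbs4, a matrix thrombospondin of tendon and muscle, had 45161, 32712 and 19146 against 1715, 5241 and 1571 (3.66 ± 0.51, adjusted p = 0.00786). Cilp and Kera, matrix proteins of cartilage and of fibrous tissue, had the largest differences of the list (10.22 ± 0.82 and 10.28 ± 1.11, adjusted p = 0.00198 and 0.00536). The tendon transcription factors Scx and Mkx were not called and overlapped (113, 42.6 and 227 against 43.4, 284 and 299 for Scx), and the 7 higher genes encode matrix proteins and tenomodulin, a membrane protein. Tnc (tenascin C) was below marrow in every library (-1.49, adjusted p = 0.0178) but just under the fold threshold.

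Genes of fibrous periosteum and fibroblasts were higher in periosteum in 12 of 20 cases (2.4% of all genes tested were) and lower in 0, with a median of 4.27. Without any one library, 12 or 13 were higher. Ly6a (Sca-1), a surface marker of stem and progenitor-like stromal cells, had 11611, 3983 and 4249 in periosteum and 27.6, 19.9 and 21.8 in marrow. Marrow P1 cells were close to 0 on this scale (7.93 ± 0.54, adjusted p = 0.00125). Gsn (gelsolin), an actin-severing protein, had 137918, 63889 and 46867 against 3824, 3509 and 4049 (4.30 ± 0.38, adjusted p = 0.00274). Col3a1, the collagen of loose connective tissue, had 92889, 30484 and 87248 against 4892, 3397 and 8792 (3.57 ± 0.50, adjusted p = 0.00786). Mgp (matrix Gla protein), an inhibitor of mineralization, had 44565, 37494 and 34674 against 262, 17.4 and 214 (8.58 ± 0.92, adjusted p = 0.00502). Igfbp6, which binds IGF2, and Mfap5, a microfibril protein, were higher by 10.23 ± 0.76 and 9.27 ± 0.76 (adjusted p = 0.00157 and 0.00198). Pi16 and Cd34, markers of fibroblasts around vessels and in fascia, and Aspn (asporin), a proteoglycan of the periosteum, were also higher (7.17, 6.45 and 8.19).

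The broader mesenchymal genes of the same list did not separate the tissues. Dcn (decorin), which coats collagen fibrils, had 106720.1, 95120.1 and 60752 against 82702, 99236 and 74841 and a log2 fold change of 0.00 ± 0.30. Pdgfra, the PDGF receptor of mesenchymal cells, had 4431, 2832 and 1460.4 against 3437, 3883 and 2839.7, and Ctsk, a collagen-cutting protease used as a marker of periosteal stem cells, had 3791, 3349 and 3096 against 4228, 6101 and 3621. Postn (periostin), the matrix protein named after the periosteum, overlapped as well (6824, 2157 and 17113 against 1716, 2423 and 4024, adjusted p = 0.336). All 4 genes had overlapping groups.

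**Figure D3:**
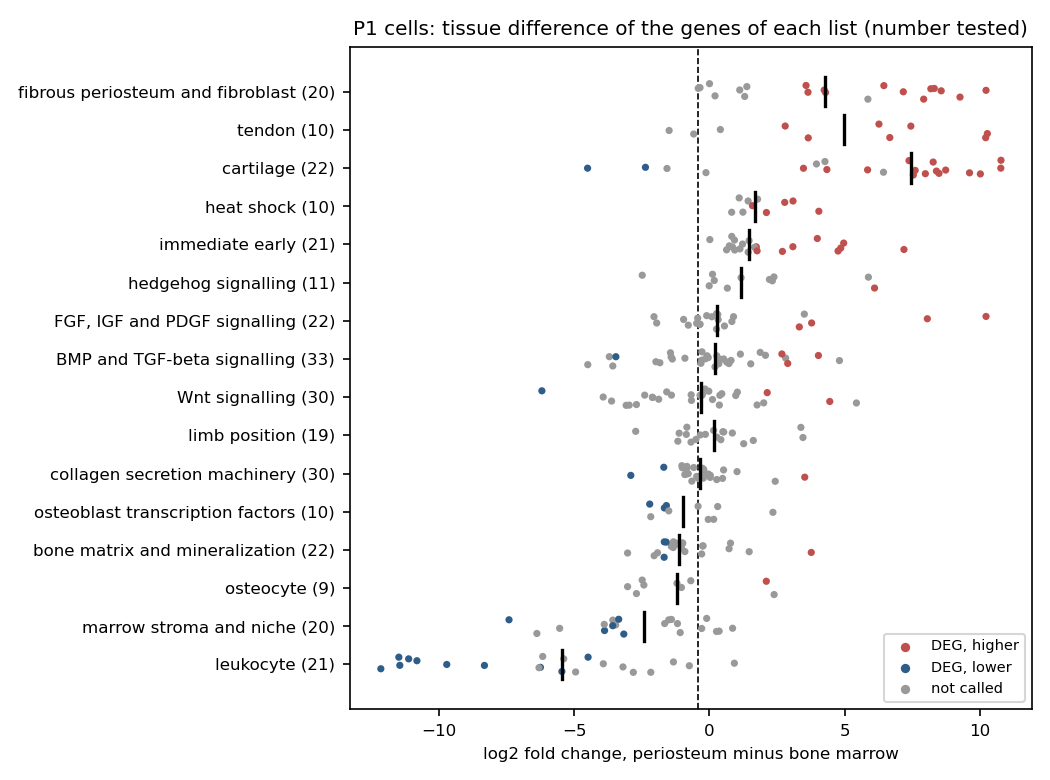
Each point is a tested gene of 1 of 16 gene lists, placed by its log2 fold change in P1 cells, periosteum minus bone marrow (x axis), with the number tested beside the list name. Red and blue points are DEGs, grey points are not called, the black bars are list medians and the dashed line is the median of all genes. Cartilage, tendon and fibroblast medians lie furthest to the right and the leukocyte median furthest to the left.

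Genes of marrow stroma and of its support of blood cells were lower in periosteum in 5 of 20 cases (3.73% of all genes tested were) and higher in 0. Of the 20, 12 lay below marrow in every library (18.4% of all genes tested did), and the median log2 fold change was -2.41. Cxcl12, the chemokine that keeps blood stem cells in the marrow, had 5623, 4051 and 9103 in periosteum and 70149, 30282 and 71126 in marrow. The groups lay well apart (-3.17 ± 0.42, adjusted p = 0.00755), and the call held without each library. Kitl (stem cell factor) had 72.2, 54.2 and 206 against 1577, 1104 and 1535 (-3.88 ± 0.59, adjusted p = 0.00895), lost without marrow replicate 1 or 3 (0.0613 and 0.05895). Vcam1, an adhesion molecule for blood progenitors, had 615, 114 and 649 against 4664, 2233 and 4744 (-3.36 ± 0.69, adjusted p = 0.0261), lost without any one marrow library (up to 0.1197). Hp (haptoglobin), which binds free haemoglobin, and Esm1, a secreted proteoglycan, were also lower (-3.58 ± 0.81 and -7.42 ± 1.63, adjusted p = 0.0396 and 0.0353). Hp was lost without any one marrow library or periosteum replicate 1 (up to 0.157). Esm1 was lost in 5 of the 6 fits without 1 library and kept without periosteum replicate 3, the library in which it was highest (1.999, 3.73 and 295). The count of 5 ranged from 1 to 9 without 1 library.

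Lepr, the leptin receptor used to mark marrow stroma, Grem1, a BMP antagonist of skeletal stem cells, and Adipoq (adiponectin) were below marrow in every periosteum library but were not called. Lepr had 2436, 448 and 1302 against 3821, 2565 and 4567 (adjusted p = 0.157), Grem1 had 9.91, 43.8 and 64.96 against 606, 147 and 608 (adjusted p = 0.107), and Adipoq had 339.6, 46.9 and 1111 against 4883, 1999.5 and 6088 (adjusted p = 0.07396). The periosteum libraries differed among themselves by several-fold for each. Of 6 osteoclast regulators, 0 were called. Csf1, a growth factor for osteoclast precursors, and Tnfsf11 (RANKL), which drives osteoclast formation, had all periosteum values below marrow (adjusted p = 0.156 and 0.219).

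Blood cell genes moved with the tissue, although CD45+ cells had been gated out. The 30 leukocyte markers summed to 186, 898 and 1017 normalized counts in periosteum and to 26331, 53180.5 and 82941 in marrow, which was at most 0.495% of a library. Of 21 tested, 10 were lower in periosteum (7 to 12 without 1 library) and 0 higher, against 3.73% lower and 2.4% higher over all genes tested. Only 8 of the 21 had values above 0 in all 6 libraries, and 4 of those were lower. Ngp and S100a9, proteins of neutrophil granules and cytoplasm, had 1.97, 0.7395 and 12.6 and 2.14, 2.96 and 0.943 in periosteum against 5637, 13395 and 22328 and 4894, 7894 and 13894 in marrow (adjusted p = 0.00198 and 0.00125). Ltf (lactoferrin) was listed at 0 in every periosteum library and at 3327, 5860.1 and 4917 in marrow. Ptprc, which encodes CD45, was low in both, with 0, 9.85 and 2.52 against 61.8, 252 and 204 (adjusted p = 0.0481), a call lost without any one marrow library or periosteum replicate 3 (up to 0.182). Of 13 erythroid genes, 5 were lower (1 to 5 without 1 library) and 0 higher, and their summed share was 0.119% to 0.348% in periosteum and 0.5501% to 2.98% in marrow, where replicate 3 was highest. The part of these cells in the other differences was not tested. Without the globin genes in the total, but with all other blood cell genes left in, the type I collagen share differed by -20.9 percentage points.

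Markers of other cells that the gate could hold were mostly low. Over all genes tested, 2.4% were higher and 3.73% lower. Of 8 mural cell genes tested, 4 were higher in periosteum (2 without marrow replicate 1, 3 or 4 without another library), but of the 5 with values above 0 in all 6 libraries 1 was, and the median of the list was 4.36 over the 8 and 0.17 over the 5. The higher genes included Acta2 (smooth muscle actin, 3195, 1401 and 1475 against 15.2, 0 and 59.7, adjusted p = 0.0201), Tagln (transgelin, 1082, 853 and 991 against 30.4, 8.81 and 25.5, adjusted p = 0.00786) and Myh11 (smooth muscle myosin), listed at 0 in marrow and at 914, 253 and 339 in periosteum. Acta2 was lost without marrow replicate 1 or periosteum replicate 2 or 3 (up to 0.0611). The mural list summed to at most 0.04998% of a periosteum library and 0.0166% of a marrow library. Among the 6 endothelial and 4 osteoclast genes tested, 0 were called, and in each case at most 1 of the megakaryocyte, Schwann cell, skeletal muscle and adipocyte genes was. These were Tubb1, a platelet tubulin (lower, listed at 0 in every periosteum library), S100b, which cartilage also expresses (higher, lost without marrow replicate 2), Tnni2, a fast muscle troponin (higher, lost without marrow replicate 1 or 3), and Car3, a carbonic anhydrase (lower, 5135, 15426 and 11875 against 59958, 74284 and 51524, adjusted p = 0.00898). In such bulk samples, fewer cells of a type and less RNA per cell cannot be told apart.

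Calls among signalling genes went both ways. Over all genes tested, 2.4% were higher and 3.73% lower, so the few Wnt calls are not read as a result about that list. Of 30 Wnt genes tested, 2 were higher (1 without any one marrow library) and 1 lower (3 without periosteum replicate 1), and of the 25 with values above 0 in all 6 libraries 2 were higher and 0 lower. Sfrp2, a secreted Wnt modulator, had 3997, 1839 and 2101 in periosteum and 128, 74.5 and 150.2 in marrow (4.45 ± 0.47, adjusted p = 0.00461), and Fzd1, a Wnt receptor, had 710.2, 901 and 1500.4 against 241, 212 and 218 (2.14 ± 0.42, adjusted p = 0.0209), the latter lost without any one marrow library (up to 0.0824). Rspo2, a secreted enhancer of Wnt signalling, was the lower gene, listed at 0 in each periosteum library and at 141, 58.4 and 46.2 in marrow. The list median of -0.31 lay close to that of all genes. After rescaling to the same total it was 0.15, and the median of all genes was 0.04.

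Of 33 BMP and TGF-beta genes, 3 were higher and 1 lower (2.4% and 3.73% of all genes tested were). Id1 and Id2, inhibitors of differentiation factors and early targets of BMP signalling, had 1323, 1106 and 797 and 7283, 4058 and 5652 in periosteum against 35.8, 78.5 and 90.3 and 1090.3, 763 and 485 in marrow, without overlap (4.03 ± 0.59 and 2.90 ± 0.36, adjusted p = 0.008196 and 0.00688). Their relative Id3 overlapped (18047, 15124 and 13067 against 12570.5, 13168 and 9122). The TGF-beta ligands went in opposite directions: Tgfb3 was higher (8542, 2812 and 5123 against 1018, 738 and 619.9, 2.68 ± 0.42, adjusted p = 0.00941) and Tgfb1 lower (79.9, 63.95 and 147 against 853, 1332 and 917, -3.46 ± 0.53, adjusted p = 0.00896), and Tgfb1 was lost without any one marrow library (up to 0.0776).

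Of 22 FGF, IGF and PDGF genes, 4 were higher and 0 lower (2.4% and 3.73% of all genes tested were). Without any one marrow library 2 were higher. Igf1 and Igf2, the insulin-like growth factors, had 12769.8, 4779 and 4391 and 6559.7, 769 and 1800.0 in periosteum against 732, 359.5 and 1007 and 139, 145 and 169.8 in marrow, with replicate 1 the highest for both (3.32 ± 0.52 and 3.78 ± 0.72, adjusted p = 0.00939 and 0.0193). Igf2 was lost without any one marrow library or periosteum replicate 3 (up to 0.0799). Fgf18, a growth factor of cartilage and the bone surface, was listed at 0 in every marrow library and at 1317, 193 and 73.7 in periosteum, again highest in replicate 1, and was not called without any one marrow library. The binding proteins Igfbp4 and Igfbp5 overlapped. Among 11 hedgehog genes, 1 was called: Hhip, a decoy receptor induced by the pathway, with 147, 157 and 346 against 7.52, 0 and 1.899 (6.11 ± 1.22, adjusted p = 0.0234), lost without any one marrow library (up to 0.142). Among the chemokine and complement genes, 4 of 14 were higher and 0 lower, with 2 higher without marrow replicate 2 or 3 and 1 of 10 among those with values above 0 in all 6 libraries. Cxcl1 and Ccl2, which attract neutrophils and monocytes, had 271, 1234 and 459 and 592, 159 and 343 in periosteum against 8.35, 1.75 and 0 and 5.17, 0 and 0 in marrow (adjusted p = 0.01295 and 0.0112). Both were lost without marrow replicate 2 or 3 (up to 0.0669 for Cxcl1 and 0.0786 for Ccl2), and Ccl11 (eotaxin) was listed at 0 in marrow and at 140.3, 487 and 324 in periosteum.

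The machinery that folds and exports collagen was covered by a list of its own. Of its 30 genes, 1 was higher and 2 lower (2.4% and 3.73% of all genes tested were). The median of -0.34 was close to that of all genes. After rescaling to the same total it was 0.14, and that of all genes was 0.04. Serpinh1 (Hsp47), the chaperone specific to collagen, was lower, with 4777, 6204 and 3589.8 in periosteum and 37695, 45541 and 26350.2 in marrow. The groups did not overlap (-2.91 ± 0.29, adjusted p = 0.003901), and the call held without each library. Creb3l1, a transcription factor for collagen secretion in osteoblasts, was lower (2489.8, 3721 and 2469 against 6713, 11047 and 10377, -1.69 ± 0.28, adjusted p = 0.0109, lost without marrow replicate 2 or 3, 0.0552 and 0.0568), and Tmem38b, an ion channel of the endoplasmic reticulum whose loss causes brittle bones, was higher (4518, 1988 and 1229 against 198, 184 and 195, 3.53 ± 0.49, adjusted p = 0.00786). P4hb, a subunit of the enzyme that hydroxylates collagen, overlapped (22136, 20114 and 16494 against 25405, 32109 and 21623).

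The collagen genes themselves went both ways. Of 34 collagen genes tested, 14 were higher and 2 lower (10 to 14 and 0 to 4 without 1 library), against 2.4% and 3.73% of all genes tested. All periosteum values lay above marrow for 15 and below for 11 (11.1% and 18.4% of all genes tested). Beyond the cartilage collagens, Col12a1, a fibril-associated collagen of tendon and periosteum, had 14290.5, 13947 and 17389 against 2246, 1792 and 2535 (2.80 ± 0.22, adjusted p = 0.00198), and Col8a2, a network-forming collagen, had 10221, 1718 and 4992 against 18.8, 27.7 and 6.31 (8.11 ± 0.83, adjusted p = 0.00443). Col13a1, a transmembrane collagen, was lower (134, 1113 and 587 against 3217, 5426 and 3299, -3.12 ± 0.71, adjusted p = 0.0407), lost without any one marrow library or periosteum replicate 3 (up to 0.174). Of 18 matrix proteases and inhibitors, Timp3, a matrix-bound inhibitor of metalloproteinases, was higher (16051, 7763 and 10689.7 against 446, 293 and 622, 4.66 ± 0.37, adjusted p = 0.00198), as was Adamts1, a proteoglycan-cutting protease (1.98), and Mmp16, a membrane protease, was lower (-2.10, lost without any one marrow library, up to 0.1597). Mmp2 and Mmp14, collagen-degrading enzymes, overlapped.

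Immediate early genes, which cells switch on within minutes of a stimulus, were higher in periosteum in 9 of 21 cases (2.4% of all genes tested were) and lower in 0. All 21 log2 fold changes were above 0, and in 15 the tissues did not overlap, periosteum being higher (11.1% of all genes tested were). Egr1, a growth-induced zinc finger factor, had 25387, 35399 and 35873 in periosteum and 3763, 4149.9 and 3362 in marrow. The tissues were far apart and the replicates close (3.09 ± 0.22, adjusted p = 0.00137). Fos had 35832, 50435 and 44268 against 17087, 13339.6 and 9546 (1.73 ± 0.27, adjusted p = 0.00941), and Nr4a1, an orphan nuclear receptor, 3536, 4016 and 2982 against 386, 101 and 34.2 (4.97 ± 0.79, adjusted p = 0.00965). Egr2 was higher by 7.20 ± 1.34 (860.2, 1351 and 904 against 18.6, 16 and 0, adjusted p = 0.0173), lost without periosteum replicate 2 (0.0512). Zfp36, which marks inflammatory mRNAs for decay, had 4835, 7794 and 8411 against 1087, 1104 and 961 (2.70 ± 0.27, adjusted p = 0.003901). Jun was above marrow in every periosteum library without a call (0.93, adjusted p = 0.0621).

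Heat shock genes behaved alike: 5 of 10 were higher (2.4% of all genes tested were) and 0 lower. All periosteum values lay above marrow for 9 of 10 (11.1% of all genes tested). Hspa1a and Hspa1b, the inducible HSP70 genes, had 5424, 3732 and 3229 and 6684, 5498 and 3913 in periosteum against 823, 299 and 426 and 880.2, 109.7 and 325 in marrow (3.09 ± 0.41 and 4.05 ± 0.68, adjusted p = 0.00755 and 0.0114). These paralogs are near-identical and may share reads, and Hspa1b was lost without marrow replicate 3 (0.0508). Dnaja1, a co-chaperone, had 5831, 5913 and 4695 against 1501, 2115 and 1859 (1.59 ± 0.23, adjusted p = 0.00802), under the fold threshold without marrow replicate 1. The higher counts were 8 to 11 for immediate early and 3 to 6 for heat shock genes without 1 library, and 7 and 2 without the variance trend. Periosteal cells were released by 20 min of digestion with collagenase P and DNase I whereas marrow was flushed out, so tissue and isolation cannot be told apart.

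The promoters of Zfp36 and Egr2 are shown because they are the immediate early genes whose 250 bases before the start site held a CArG box, the binding motif of serum response factor, written in capitals (RefSeq, GRCm38.p6; Zfp36 chr7:28379229-28379478, minus strand; Egr2 chr10:67537316-67537565, plus strand, 1 of its 5 listed promoters). The motif ends 48 bases before the start site of Zfp36 and 62 before that of Egr2.
Zfp36: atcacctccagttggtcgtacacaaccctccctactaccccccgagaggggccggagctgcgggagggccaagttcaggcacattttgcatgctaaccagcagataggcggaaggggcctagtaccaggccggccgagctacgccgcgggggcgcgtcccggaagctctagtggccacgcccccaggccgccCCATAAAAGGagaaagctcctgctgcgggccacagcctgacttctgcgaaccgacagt
Egr2: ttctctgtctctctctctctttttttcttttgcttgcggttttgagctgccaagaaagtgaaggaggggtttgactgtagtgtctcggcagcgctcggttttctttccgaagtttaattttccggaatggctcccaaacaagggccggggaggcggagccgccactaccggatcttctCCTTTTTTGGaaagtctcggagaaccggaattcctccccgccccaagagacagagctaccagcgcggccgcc
The motif was searched on both strands and occurred in 2 of 18 immediate early genes with a promoter in the table (11.1%) and in 1.62% of 27025 genes. For the other immediate early genes, no match says only that these letters are not in this window.

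The periosteum libraries differed among themselves by gene group. Replicate 2 had the highest value of the 3 for 18 of the 22 cartilage genes, against 31.8% of all genes tested. Matn1 and Ihh, a matrix protein and a signal of growth plate cartilage, were at 0, 1290.3 and 0 and 0, 808 and 0 in periosteum, with values above 0 in replicate 2 alone. Replicate 1 was the highest for 15 of the 20 fibroblast genes (38.02% of all genes) and the lowest for 18 of the 22 bone matrix genes (44.8%). The order of cartilage, fibrous and bone genes among the 3 libraries was therefore not the same, and the cell composition behind it was not tested.

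**Figure D4:**
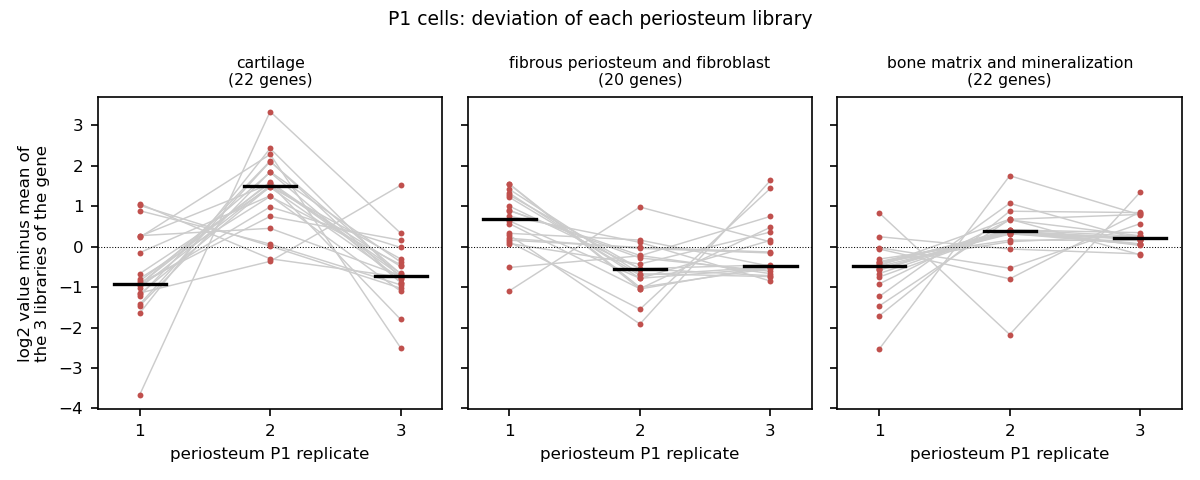
Deviation of each periosteum P1 library from the gene's mean over the 3 libraries, in log2(normalized count + 1), for the tested genes of 3 lists. Points are genes, grey lines join the values of 1 gene (the replicates have no order) and black bars are medians. Replicate 2 is highest for 18 of 22 cartilage genes, replicate 1 highest for 15 of 20 fibroblast genes and lowest for 18 of 22 bone matrix genes.

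The tissue difference of P1 was then compared with that of P3 and of P2, in 1 fit of the 18 periosteum and bone marrow libraries. Both tests share the P1 libraries. Against P3, 24 of 17732 genes (0.135%) had a different tissue effect, 2 more positive (0.0113%) and 22 more negative (0.124%) in P1. The genes named next were chosen from these after their values were seen. Sparc had lower values in periosteal than in marrow P1 cells (232022, 375508 and 312882 against 587491, 593784 and 516889) but higher ones in periosteal than in marrow P3 cells (51861, 95422 and 77790.5 against 15655, 11292 and 16248). Its difference of log2 fold changes was -3.26 ± 0.36 (adjusted p = 0.000924), and the groups did not overlap within either fraction.

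Jam2, a junctional adhesion molecule, showed the same crossing, with 407, 419 and 409 against 1423, 2162 and 1213 in P1 and 4306, 2502 and 2900.3 against 85.97, 67.2 and 133 in P3 (-7.00 ± 0.84, adjusted p = 0.0018). Dcn, Mmp2 and Serpinf1 (PEDF, an inhibitor of vessel growth) had log2 fold changes of 0.00, -0.36 and -0.99 in P1 and 4.38, 4.25 and 3.24 in P3 (adjusted p of the difference 0.032, 0.013 and 0.0232). For Dcn and Mmp2 the P1 tissues overlapped. Slc20a1 was the reverse: marrow P1 cells (71.4, 126 and 76.1) lay below all the other periosteum and marrow groups, among them marrow P3 (803, 1013 and 1405) and periosteal P3 (804, 1129 and 792), and the difference was 3.99 ± 0.73 (adjusted p = 0.0439). Only 3 of the 24, Sparc, Jam2 and Rhd, a blood group protein of red cells, were called in all 18 fits without 1 library, and the number called ranged from 3 without marrow P3 replicate 2 to 51 without periosteum P2 replicate 2. After rescaling to the same total, 31 of 45 called genes were more positive in P1, and with quantile normalization 18 of 32.

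Against P2, 773 genes (4.36%) differed, 482 more positive (2.72%) and 291 more negative (1.64%) in P1, and 421 of them were called in all 18 fits without 1 library. Of the 30 collagen secretion genes, 16 were more negative in P1 and 0 more positive, with median tissue effects of -0.34 in P1 and 2.25 in P2. Of 22 bone matrix genes, 7 were more negative and 1 was more positive. Sparc was at 51133, 74846 and 106567 in periosteal and 611, 449 and 542 in marrow P2 cells (-8.04 ± 0.36, adjusted p = 6.47e-10). Of 26 cartilage genes, the 4 with a more negative effect in P1 than in P2 were Col2a1, Pth1r, Col11a1 and Col11a2, none of which was a higher DEG in periosteal P1 cells (Col2a1 -11.22 ± 1.33, adjusted p = 0.000166). Erythroid genes made up 45.8% to 49.1% of the marrow P2 libraries and 24.8% to 39.9% of the periosteal ones, and their part in this comparison was not tested. With quantile normalization the split was 166 to 355, and among genes with a mean of at least 50 it was 101 to 242.

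**Figure D5:**
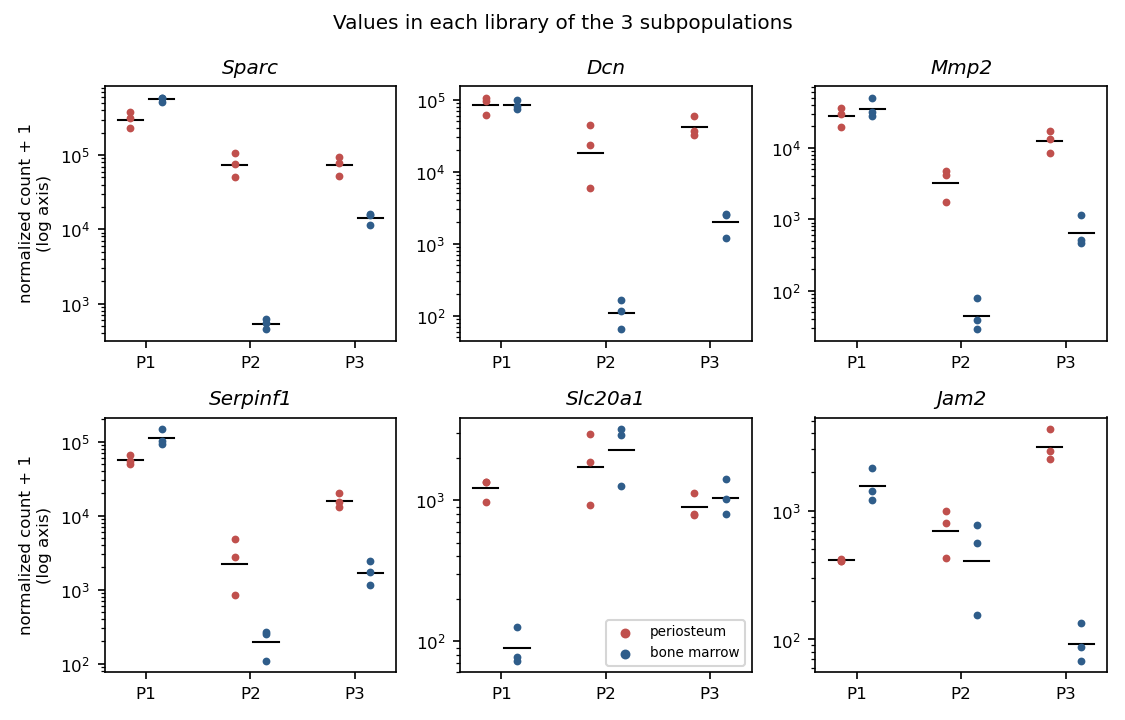
Normalized count + 1 on a log axis for 6 genes in the periosteum (red) and bone marrow (blue) libraries of P1, P2 and P3, 3 libraries per group, with the mean of the log values as a bar. Sparc and Jam2 are lower in periosteum than in marrow in P1 and higher in P3, Dcn and Mmp2 overlap in P1 and are higher in periosteum in P2 and P3, and Slc20a1 is low in marrow P1 alone.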

How the data were processed

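Prx1+ CD45- cells were sorted by CD105 and CD200, and libraries were made with SMART-Seq v4 and Nextera XT. The authors trimmed reads (Trim Galore), aligned them (STAR) and scaled counts with DESeq2, and deposited 1 table of normalized counts, treated here as a signal because whole reads could not be recovered. The genome build, annotation and counter are not given in the sources used here, and depth in reads is therefore unknown. Here, log2(value + 1) was tested with limma 3.58.1 (trend, R 4.3.3) on the 6 P1 libraries, for genes reaching 10 in 3 or more libraries. Differences from P2 and P3 were contrasts in a fit of 18 libraries (17732 genes). Shares and gene numbers were compared by exact permutation. The fit was tested on simulated data, where it missed most of the changed genes, so a gene not called here is not shown to be equal. Same-numbered libraries of the tissues did not deviate together (r = 0.00263, 0.0282 and 0.0100), so numbers were not used to pair them. The comparison and the gene lists were chosen with earlier results of these data known. Genes named were the 8 largest DEGs in each direction without overlap and with a mean of at least 100 in the higher tissue, in each list the 3 of highest level and the 2 largest DEGs in each direction, a fixed set of markers, and the 5 largest differences from P2 and from P3 in each direction. Other genes were named after their values were seen.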

Additional observations from a re-analysis of the deposited data

Results flagged for a closer look

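These results stood out because the tissue difference of P1 differed from that of another fraction by a test of the difference itself (limma, adjusted over 17732 genes). Values beside each gene are log2 fold changes, periosteum minus bone marrow, or, where a tissue is listed at 0, the normalized counts of the 3 libraries of the other tissue. Against P3, 24 genes differed. Slc20a1, the phosphate transporter, had the more positive effect in P1 (3.77 in P1 and -0.22 in P3, adjusted p = 0.0439). The 5 with the largest negative differences were Xdh, Exoc3l4, Cyb561a3, C1qtnf9 and Ccl21a. Xdh is xanthine dehydrogenase (-6.72 in P1 and 5.56 in P3, adjusted p = 0.0444). Exoc3l4 had values in periosteal P3 but not periosteal P1 libraries (in P1 listed at 0 in periosteum, with 369, 199.8 and 221 in bone marrow, and 4.28 in P3, adjusted p = 0.0232). So did Cyb561a3 in 2 of the 3 periosteal P3 libraries (in P1 listed at 0 in periosteum, with 126, 38.5 and 59.1 in bone marrow, and in P3 listed at 0 in bone marrow, with 0, 312 and 238 in periosteum, adjusted p = 0.0444). C1qtnf9 (-0.94 in P1 and 8.26 in P3, adjusted p = 0.037) and the lymphoid chemokine Ccl21a (in P1 listed at 0 in bone marrow, with 2.04, 3.75 and 0.901 in periosteum, and 10.73 in P3, adjusted p = 0.0227) did not pass the filter among P1 libraries, where no value exceeded 3.75. C1qtnf9 and Ccl21a entered this fit only through other groups. For them the filter favoured a difference, and their p-values are not counted as support for one. Of these 6 genes, 0 were called in all 18 fits that left out 1 library.

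Against P2, 773 genes differed. More positive in P1 was Myh11, the myosin heavy chain of smooth muscle (in P1 listed at 0 in bone marrow, with 914, 253 and 339 in periosteum, and -2.35 in P2, adjusted p = 0.0451). Others were Cst7, a protease inhibitor of leukocytes (2.81 in P1 and -8.29 in P2, adjusted p = 0.011), Slc4a11 (4.24 in P1, and in P2 listed at 0 in periosteum, with 91.97, 138 and 123 in bone marrow, adjusted p = 0.0108), Dio2, which activates thyroid hormone (7.06 in P1 and -4.30 in P2, adjusted p = 0.00263), and Megf6 (6.12 in P1 and -6.06 in P2, adjusted p = 0.0165). More negative were Col2a1 (-0.13 in P1 and 11.09 in P2, adjusted p = 0.000166), Pth1r (-4.51 in P1 and 8.57 in P2, adjusted p = 0.00152) and the collagen chaperone Serpinh1 (-2.91 in P1 and 8.84 in P2, adjusted p = 0.00051). So were Slc7a6 (-1.92 in P1, and in P2 listed at 0 in bone marrow, with 444, 592 and 1158 in periosteum, adjusted p = 0.00334) and Nid2, a basement membrane protein (-0.69 in P1 and 10.54 in P2, adjusted p = 0.000711). Of these, Myh11 and Dio2 were higher and Pth1r and Serpinh1 lower DEGs in P1 itself, Col2a1, Cst7, Megf6, Slc7a6 and Nid2 were not called there, and Slc4a11 did not pass the P1 filter. Slc4a11 entered this fit through other groups, so its p-value is not counted as support for a difference.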

How the results depend on the processing

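The number of DEGs (799) was 375 among genes above 0 in all 6 libraries (chosen after seeing the data), 426 without a filter on low values, 477 with a mean of at least 50 and 1211 with the 9 P1 libraries of 3 tissues in the fit, and 472 to 1104 without 1 library. The fewer or more genes and samples are built into these settings. A pseudocount of 0.1 or 5, rescaling, quantile normalization, a fit without the variance trend and all 27 libraries gave 643 to 966. With the replicate block, the count was 694, against P3 9 and against P2 712, and the numbers do not pair the samples. The 24 genes that differed from P3 became 45 after rescaling to the same total and 109 with the 12 P1 and P3 libraries alone, and 3 to 51 without 1 library. The 773 that differed from P2 became 1189 without a filter, 343 with a mean of at least 50 and 514 after rescaling, and 496 to 1288 without 1 library. The causes of these shifts were not tested. Of the 163 genes tested among those named by rule, 81 were DEGs, of which 48 were DEGs in all 6 fits without 1 library, and no call reversed its direction under any setting run. The 3 libraries per tissue with unequal complexity, an unknown depth in reads, tissue confounded with digestion, and values listed at 0 in 1 tissue limit what the comparison can resolve.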

Other observations

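Ribosomal protein genes leaned towards periosteum as a group. Of 77 tested, 66 had all 3 periosteum values above all 3 marrow values (11.1% of all genes tested did), and 75 had a log2 fold change above 0, with a median of 0.96 against -0.43 over all genes. Only 3 were DEGs, all higher in periosteum (2.4% of all genes tested were). Among them were Rps27 (10635, 6017 and 7109 in periosteum and 2440.0, 2661 and 2474 in marrow, 1.61 ± 0.25, adjusted p = 0.00944) and Rps20 (5757, 5292 and 3985 and 1638, 1337 and 1631, 1.69 ± 0.23, adjusted p = 0.00786), by limma with Benjamini-Hochberg adjustment. Rps27 fell under the fold threshold without periosteum replicate 1. The count was 34 after rescaling to the same total and 0 without the variance trend. Reads of processed ribosomal pseudogenes may be shared with these genes.

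Genes of cell division were mostly not called. Over all genes tested, 2.4% were higher and 3.73% lower, so the few calls are not read as a result about these lists. Of 40 G1/S genes, 1 was higher and 1 lower: Nasp, a histone chaperone (1957, 518 and 1209 against 190.2, 168 and 203, lost without any one marrow library or periosteum replicate 3), and Gmnn (geminin), which blocks repeated DNA replication (1.31, 0.751 and 0.9 against 45.2, 43.8 and 82.4, lost without marrow replicate 1). Of 49 G2/M genes, 0 were higher and 3 lower, with a median of -2.02, and 17 had all periosteum values below marrow (18.4% of all genes did). Ckap2, a spindle protein, had 2.66, 2.23 and 0 against 102, 90.2 and 162. None of the 3 was called without any one marrow library, with the replicate block or among genes above 0 in all 6 libraries.

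Genes that record limb position showed 0 DEGs of 19 tested (6.12% of all genes tested were DEGs), and Shox2 and Hoxa10, homeobox genes of the limb, had log2 fold changes of -0.86 and -0.15 (adjusted p = 0.221 and 0.8604). Beyond the lists, the largest differences included Mfap4, a microfibril protein (14788, 5177 and 4834 in periosteum and 3.01, 0 and 3.03 in marrow, 11.47 ± 0.93), Itgbl1, a secreted integrin-like protein (10.40 ± 1.04), and Myoc (myocilin, 10.08 ± 1.33). Gm15725 was listed at 0 in every periosteum library and at 425, 475 and 632 in marrow.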
